A study of Mus musculus with 6 samples.

Results

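DCT sub1 is the larger of the clusters that the authors' annotation places in the distal convoluted tubule (DCT) of the mouse kidney. Its members are the cells whose class is DCT and whose name in the authors' second clustering is DCT sub1, 1648 of 22154 cells. Wild-type C57BL/6 mice aged 16 weeks received vehicle or furosemide, at 70 mg/kg of body weight, for 1 week while on a gel diet with sodium at 104 µmol per kcal. Both groups shared the strain, age, diet and sodium content, so that furosemide was the single labelled difference. Whole-kidney suspensions were made by mechanical force and collagenase, single cells were captured on BD Rhapsody beads, and the deposited table gives whole-number counts for a chosen panel of 456 genes. The question, from the series title, was how each nephron segment adapts to furosemide, and 3 libraries of each treatment carry the answer for these cells.

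The DCT lies just downstream of the thick ascending limb (TAL), where furosemide blocks the sodium-potassium-chloride cotransporter Slc12a1, so that more salt reaches the DCT. DCT cells take up sodium and chloride through the thiazide-sensitive cotransporter Slc12a3, whose activity is set by WNK kinases and by the potassium channel pair Kcnj10 and Kcnj16 of the basolateral membrane. They take up magnesium through the channel Trpm6, and the DCT is known to enlarge when salt delivery stays high.

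Vehicle libraries 1, 3 and 5 held 321, 212 and 176 DCT sub1 cells, and furosemide libraries 2, 4 and 6 held 282, 407 and 250. Median counts per DCT sub1 cell were 1340.0, 1625.5 and 1110.5 in the vehicle libraries and 1432.5, 1445 and 1364.5 in the furosemide libraries, and the summed counts of a library's DCT sub1 cells ranged from 236790.0 to 643488. Vehicle library 5 held the fewest cells and counts. The group means of the median depth, 1359 ± 258 and 1414 ± 43.3 counts (SD, n = 3), differed by less than the spread between libraries (two-sided exact permutation p = 0.7). In all, 196 cell barcodes occurred in more than 1 library, and 30 DCT sub1 cells carried one of them. Leaving those cells out kept all 15 calls of the comparison below.

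The cluster carried its DCT label in its levels, which are given here as counts per 1000000 counts of the panel (CPM) over the summed cells of a library and are described with no test, since the clusters were made from the same genes. Slc12a3 stood at 100982 CPM on average (88566 to 113304 over the 6 libraries) and was counted in every thinned cell of every library. Trpm6 stood at 3904 CPM, 2.77 times the level of the next class, DCT2. The transferrin receptor gene Tfrc stood at 2.71 times and the sodium pump gamma subunit Fxyd2 at 1.68 times the level of the next class, which was DCT2 for Tfrc and the class named BIC for Fxyd2. The other leading genes by the same ratio were Cyr61, a secreted matricellular protein, the kinase gene Wnk4, the autophagy gene Becn1, the adenosine receptor gene Adora2b, Slc12a3 itself and the potassium channel genes Kcnj1 and Kcnj10. These ratios compare classes and leave out DCT sub2, a smaller DCT cluster. Tfrc stood at 0.841 times and Fxyd2 at 0.759 times its DCT sub2 level. Becn1, Slc12a3, Kcnj1 and Kcnj10 also stood lower in DCT sub1 than in DCT sub2, and Trpm6, Cyr61, Wnk4 and Adora2b stood higher. Parvalbumin (Pvalb), often used to mark the early DCT, was an exception among DCT genes. After each cell was thinned to 500 counts it was counted in 0 cells of the vehicle libraries. In the furosemide libraries it was counted in 0.246% to 0.408% of 282, 406 and 245 cells. The 0 in vehicle libraries 1, 3 and 5 allows up to 0.949, 1.42 and 1.78%, so no difference between treatments is read from it.

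Markers of most other kidney cell types were low in DCT sub1. The summed markers of podocytes stood at 0.0604%, of immune cells at 0.0474%, of the proximal tubule at 0.838% and of intercalated cells at 2.35% of their level in the class they mark. The connecting tubule (CNT) markers stood at 9.55% of the CNT level, carried by the calcium-binding proteins Calb1 and S100g. The TAL markers stood at 34.6% of the TAL level. Umod, which encodes uromodulin, and the channel gene Kcnj1 made up most of that sum, whereas the TAL marker Pappa2 was at 0 in DCT sub1. Umod was counted in 99.8% of DCT sub1 cells of vehicle libraries at 108502 CPM, and in 27.1% of proximal cells at 365 CPM, with median depths of 1359 and 1208 counts. Its share in DCT sub1 was thus well above that of a cell type that should lack it.

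DCT sub2, the smaller DCT cluster with 241 cells, shared the transporters and differed in immediate early genes, which cells switch on quickly after a stimulus. Of 117 genes at 500 CPM or more in either cluster, 18 stood more than 2-fold higher in DCT sub1 and 3 more than 2-fold lower. The transcription factor gene Fos stood at 60224 to 71669 CPM over the 6 libraries in DCT sub1 and at 8737 to 20474 CPM in DCT sub2, and the ranges do not overlap. Atf3 stood at 8.23 times, Egr1 at 7.67 times and Jun at 4.73 times its DCT sub2 level. Cyr61 stood at 8.95 times that level, and Hmox1, the inducible heme oxygenase, at 12.2 times. Each of these 6 genes was higher in DCT sub1 in all 6 libraries. By contrast Slc12a3 stood at 0.956 times and Trpm6 at 1.31 times its DCT sub2 level. Among the genes more than 2-fold lower were the proximal tubule gene Kap, higher in DCT sub2 in all 6 libraries, and Lypd2, which was high in DCT sub2 of library 1 alone. Being leading differences of clusters made from these genes, these values are a description.

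The share of DCT sub1 among all cells was higher on average with furosemide, with overlap between the treatments. The exact test could not have passed, since its smallest p with 3 libraries on each side is 0.1. In edgeR's test on the cell numbers of all clusters, DCT sub1 gave a log2 change of 0.25 ± 0.27 (SE, adjusted p = 0.532). Of the cells in vehicle libraries 1, 3 and 5, DCT sub1 made up 7.86, 6.39 and 4.78%. Of those in furosemide libraries 2, 4 and 6 it made up 9.24, 9.17 and 6.97%. The groups overlapped, since furosemide library 6 lay below vehicle library 1. The means were 6.35 ± 1.54% and 8.46 ± 1.29% (SD, n = 3, two-sided exact permutation p = 0.2, adjusted p = 0.3 over the 3 exact tests of share, depth and cell-cycle cells). With the proximal classes left out of the total, the shares were 9.31 to 13.8% and 15.6 to 17.8% and no longer overlapped (exact permutation p = 0.1, which is the minimum for 3 libraries on each side). With TAL cells left out instead, the means were 8.33 ± 2.05% and 9.77 ± 1.58%, and the treatments overlapped (exact permutation p = 0.4). As a share of the DCT class alone, DCT sub1 fell on the other side, at 87.3 ± 5.17% and 85.3 ± 1.78% (exact permutation p = 0.7). The authors had equalized cell numbers between treatments, so that the shares of different classes are not independent of each other.

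**Figure D1:**
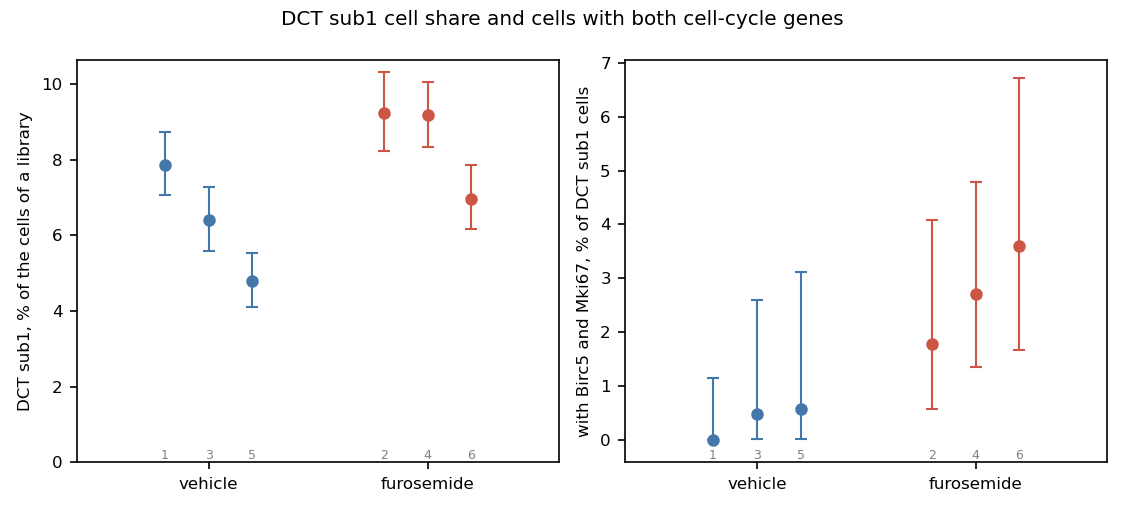
DCT sub1 cells as a percentage of each library's cells (left) and the percentage of them in which Birc5 and Mki67 were both counted (right). Each point is a library, numbered below, and bars are exact 95% binomial intervals that cover counting error only. The shares on the left overlap between treatments, while the 3 furosemide libraries on the right run from 1.77 to 3.6%, above all vehicle libraries.

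Between treatments, DCT sub1 changed in a small set of genes that were spread over cell division, iron uptake, fuel use and the extracellular matrix. None of the 20 tested salt transport genes passed, a list too short for this to differ clearly from the 5.54% called over all genes. Counts were summed per library and fitted over all 271 genes that passed the filter on low counts, and a gene was called at an adjusted p under 0.05 in edgeR's quasi-likelihood test. Of these 15 were called (5.54%), 10 higher (3.69%) and 5 lower (1.85%) with furosemide, and 40 had an unadjusted p under 0.05. In 52 genes (19.2%) the libraries of the treatments did not overlap, 28 of them higher (10.3%) and 24 lower (8.86%), and all 15 called genes were among them. Counts called in the gene lists below are to be read beside these shares. The lists were drawn up with earlier results of these data known. The median log2 change over all genes tested was 0.01. Levels below are CPM scaled with edgeR's TMM factors, and a log2 change is furosemide over vehicle, given with its standard error (SE).

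How many genes passed depended on single libraries, vehicle library 5 most of all. Without it no gene passed with edgeR (37 had an unadjusted p under 0.05), 0 passed with limma-voom, and 14 passed with DESeq2, of which 12 were among the 15. Without vehicle library 1 there were 3 calls, without vehicle library 3 there were 7, and without furosemide library 6 there were 5, all of them among the 15. In edgeR's fits with 1 library left out, the calls that ended did so at adjusted p between 0.0502 and 0.157. Without vehicle library 5 the highest were 0.183 with limma-voom (Lcn2) and 0.162 with DESeq2 (Nbl1), and none of the 15 changed sign in any of these fits. With 176 cells drawn from every library 9 genes were called. The calls of Atp6v1c2, Gpx6, Nbl1, Slc12a1 and Spp1 ended there, and those of Gpx6, Nbl1, Spp1 and Timp3 ended without the 5% of cells with the highest totals. Lcn2 was not tested in either choice of cells, since it missed the filter on low counts. The calls of Inmt, Hspa1a, Thbs1, Tfrc, Slc2a4 and Ckb held in every alternative run that kept all 6 libraries. Nothing in the labels says that the libraries came from separate animals, so the p-values measure only the spread between these samples, which may be technical.

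**Figure D2:**
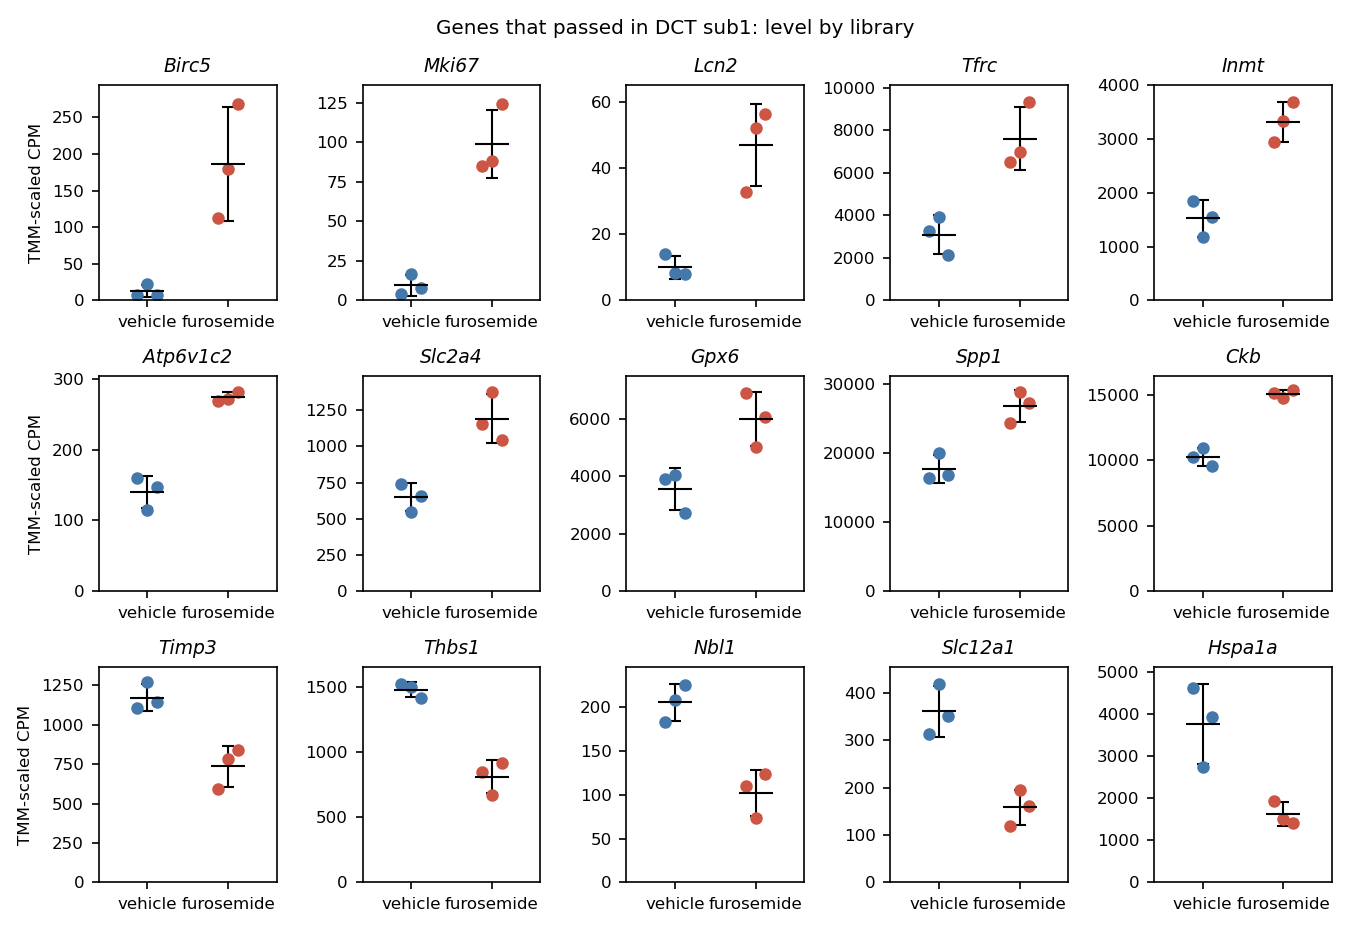
Level of the 15 called genes in DCT sub1 (TMM-scaled CPM on linear axes that start at 0). Each point is a library, black lines are the mean and SD of 3 libraries, and panels are ordered by log2 change. In every panel the furosemide libraries lie apart from the vehicle libraries.

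Birc5 and Mki67, the genes with the 2 highest log2 changes, belong to cell division. Birc5 encodes survivin, which acts at the centromere in mitosis and inhibits apoptosis, and Mki67 encodes the Ki-67 protein of dividing nuclei. Their promoters are shown because both genes moved together and both are periodic in the cell cycle. The runs are the 250 bases upstream of the start site from RefSeq (GRCm38.p6), at chr7:135716380-135716629 on the minus strand for Mki67 and chr11:117848987-117849236 on the plus strand for Birc5. Capitals mark CCAAT, the CCAAT box, and TTTGAA, a core form of the cell cycle homology region, each on either strand.
Mki67: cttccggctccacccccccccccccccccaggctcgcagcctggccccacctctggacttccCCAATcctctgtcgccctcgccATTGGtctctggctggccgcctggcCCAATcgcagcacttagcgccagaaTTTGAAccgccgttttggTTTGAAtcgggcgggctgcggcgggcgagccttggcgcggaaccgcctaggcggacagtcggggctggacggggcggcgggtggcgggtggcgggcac
Birc5: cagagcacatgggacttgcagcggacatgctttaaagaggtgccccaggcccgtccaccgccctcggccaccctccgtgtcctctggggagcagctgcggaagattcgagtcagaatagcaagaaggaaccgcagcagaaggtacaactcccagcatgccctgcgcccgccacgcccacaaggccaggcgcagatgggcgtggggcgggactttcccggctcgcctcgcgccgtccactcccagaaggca
The Mki67 run holds 2 matches to TTTGAA and 3 to CCAAT, and the matches do not overlap. Neither is in the Birc5 run. Of 32851 promoter windows of the same length, 16.0% hold TTTGAA and 33.8% hold CCAAT on either strand, so that such matches are common.

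Birc5 stood at 7.98, 21.9 and 7.92 CPM in vehicle libraries 1, 3 and 5, from 4, 8 and 2 counts, and at 113, 179 and 268 CPM in furosemide libraries 2, 4 and 6, from 48, 120 and 95 counts. All furosemide libraries lay above all vehicle libraries (log2 change 3.85 ± 0.48, adjusted p = 0.00461). Mki67 stood at 3.99, 16.5 and 7.92 CPM under vehicle and at 84.8, 87.9 and 124 CPM under furosemide, again with no overlap (log2 change 3.39 ± 0.47, adjusted p = 0.00532). Both calls were lost without vehicle library 5 (adjusted p = 0.0523), the same adjusted p for each gene. Other members of the list of cell cycle and growth control genes did not pass. Of 7 tested members 2 rose and none fell, where 3.69% of all genes tested were called higher. The list's median log2 change was 0.01. The list was drawn up with earlier results of these data known, so its count is no independent evidence of a direction. Myc, a growth-promoting transcription factor gene, gave -0.59 ± 0.34 (adjusted p = 0.531).

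Few cells carried these counts. Cells with counts of both genes numbered 0, 1 and 1 in the vehicle libraries and 5, 11 and 9 in the furosemide libraries, or 0, 0.472 and 0.568% and 1.77, 2.70 and 3.6% of DCT sub1 cells. The 0 of 321 cells in vehicle library 1 allows a share of up to 0.935%. Furosemide libraries lay above all vehicle libraries, with means of 0.347 ± 0.304% and 2.69 ± 0.914% (SD, n = 3, two-sided exact permutation p = 0.1, the smallest possible, adjusted p = 0.3). After each cell was thinned to 500 counts, which left out 12 vehicle and 6 furosemide cells, the means were 0.354 ± 0.313% and 1.47 ± 0.358%. All 25 such furosemide cells and both vehicle cells had Slc12a3 counts. In sums over the furosemide cells, DCT markers were lower in the 25 cells than in cells with neither gene: Slc12a3 at 73205 against 104483 CPM, Trpm6 at 1865 against 3930.2 CPM and Fxyd2 at 3223 against 5037 CPM, as a description without a test. Trpm6 was counted in 21 of the 25. Slc12a1 was counted in 0 of the 25, which allows up to 12%. The 25 cells had a median of 1817 counts, against 1429 in furosemide cells with neither gene.

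For comparison, cells with both genes were 0 of 2624 vehicle and 4 of 1498 furosemide TAL cells (0.267%). In Proximal s2/s3 they were 0.157% of vehicle and 0.156% of furosemide cells. CNT had 0 of 400 and 12 of 716 cells (1.68%), and DCT2 had 0 of 160 and 3 of 325 cells (0.923%). Median depths of these classes lay between 1404 and 1994 counts. DCT sub2, with median depths of 976 and 989 counts, had 0 of 90 vehicle and 1 of 151 furosemide cells (0.662%). The furosemide share in DCT sub1 thus stood above that of TAL and proximal cells measured in the same libraries, as a description without a test. In TAL, CNT, DCT2 and DCT sub2, cells with both genes were counted under furosemide alone. The vehicle 0 there allows up to 0.114%, 0.75%, 1.875% and 3.33%, in that order. For DCT2 and DCT sub2 this exceeds the furosemide share, so no difference is read. Immune cells had 4 of 297 vehicle and 4 of 249 furosemide cells with both genes, and the class CCD principal had 3 of 541 and 7 of 684.

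Iron uptake was represented by Tfrc, the transferrin receptor that brings iron into cells, and Lcn2, the siderophore-binding lipocalin released by injured tubules. Tfrc stood at 3253, 3900.1 and 2112 CPM in vehicle libraries 1, 3 and 5 and at 6510.2, 6986 and 9299.9 CPM in furosemide libraries 2, 4 and 6. The lowest furosemide library lay above the highest vehicle library (log2 change 1.30 ± 0.23, adjusted p = 0.011). The share of cells with a count was higher too: at 500 counts per cell, Tfrc was counted in 67.4, 73.1 and 52.7% of vehicle and in 85.5, 94.1 and 95.5% of furosemide cells. Tfrc also rose in DCT sub2 (1.27 ± 0.26, adjusted p = 0.0271), DCT2 (1.75 ± 0.24, 0.00209) and CNT (1.81 ± 0.30, 0.0125). Tfrc lost its call without vehicle library 1 (adjusted p = 0.0523), vehicle library 5 (0.0523) and furosemide library 6 (0.0518).

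Lcn2 was near the limit of these data, at 7, 3 and 2 counts in the vehicle libraries and 14, 35 and 20 in the furosemide libraries. Its levels were 14.0, 8.23 and 7.92 and 33.0, 52.2 and 56.3 CPM, without overlap (log2 change 2.13 ± 0.43, adjusted p = 0.0191). No more than 1.63% of thinned cells had a count in any library. The call was lost without vehicle library 1 (adjusted p = 0.0523), vehicle library 3 (0.109), furosemide library 4 (0.0551), vehicle library 5 (0.147) and furosemide library 6 (0.0789) and over the whole DCT class (adjusted p = 0.273). Of the list of iron and heme genes, 3 members were tested, and 2 rose, where 3.69% of all genes tested were called higher. The third, Hmox1, gave 0.27 ± 0.51 (adjusted p = 0.931), with vehicle libraries at 2355, 812 and 1042 CPM and furosemide libraries at 1557, 2626 and 890.0 CPM.

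Of 7 tested genes of glucose, creatine and fuel use, Slc2a4 and Ckb rose, and 5 did not pass (3.69% of all genes tested were called higher). Slc2a4 encodes GLUT4, the insulin-regulated glucose transporter. Its level was 742, 549 and 662 CPM in the vehicle libraries and 1152, 1377 and 1045 CPM in the furosemide libraries, without overlap (log2 change 0.87 ± 0.17, adjusted p = 0.0142). Ckb encodes the brain-type creatine kinase, which buffers ATP. It stood at 10254, 10954 and 9580.3 CPM and at 15114, 14729 and 15347 CPM, in each treatment within a narrow band (log2 change 0.55 ± 0.11, adjusted p = 0.0197). The median log2 change of the list was 0.37. Slc2a4 lost its call without vehicle library 1 (adjusted p = 0.0502), vehicle library 3 (0.0663) and vehicle library 5 (0.0696). Ckb lost its call without vehicle library 1 (adjusted p = 0.0792), furosemide library 2 (0.0864), vehicle library 5 (0.147) and furosemide library 6 (0.0698).

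Inmt encodes indolethylamine N-methyltransferase, which methylates tryptamines and other amines. It stood at 1838, 1168 and 1557 CPM under vehicle and at 2935, 3337 and 3681 CPM under furosemide, again apart (log2 change 1.12 ± 0.18, adjusted p = 0.0102). Thinned cells with an Inmt count were 34.4% to 49.1% of vehicle and 54.3% to 64.0% of furosemide cells. Gpx6, a glutathione peroxidase gene and the single called member among 3 tested antioxidant genes, stood at 3906, 4040.0 and 2714 CPM and at 6892, 5008 and 6067 CPM (log2 change 0.75 ± 0.18, adjusted p = 0.0427). Over all genes tested, 3.69% were called higher. Gpx1, the cytosolic glutathione peroxidase gene, did not overlap either but did not pass (0.31 ± 0.13, adjusted p = 0.28). The Inmt call was lost without vehicle library 5 (adjusted p = 0.0523). The Gpx6 call was lost without vehicle library 1 (adjusted p = 0.104), furosemide library 2 (0.153), vehicle library 3 (0.0896), vehicle library 5 (0.156) and furosemide library 6 (0.14), as well as with RLE size factors (adjusted p = 0.0565), library sizes without Slc12a3 (0.0542), without cells with 2 or more Slc12a1 counts (0.0621) and over the whole DCT class (0.103).

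Atp6v1c2, a subunit gene of the vacuolar proton pump, was the single called gene among 4 tested intercalated markers (3.69% called higher over all genes). Levels were 159.7, 115 and 147 CPM in the vehicle libraries and 269, 271 and 282 CPM in the furosemide libraries, which lay higher (log2 change 0.96 ± 0.18, adjusted p = 0.0142). At 500 counts per cell the shares with a count overlapped, at 6.13% to 11.4% and 8.51% to 12.3%. The 8 intercalated markers of the panel summed to 3875 to 4459.8 CPM under vehicle and 4412 to 5248 CPM under furosemide, with none at 0. Their part in the result was not tested. The Atp6v1c2 call was lost without vehicle library 1 (adjusted p = 0.0502), vehicle library 3 (0.0614), vehicle library 5 (0.0696) and furosemide library 6 (0.0518), and with cells thinned to 500 counts (log2 change 0.49, adjusted p = 0.427).

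Of 8 tested matrix and protease control genes, 3 passed, where 5.54% of all genes tested did. Spp1 encodes osteopontin, a secreted phosphoprotein of the distal tubule. It rose from 16345, 20098 and 16902 CPM in the vehicle libraries to 24404, 28853 and 27255 CPM in the furosemide libraries (log2 change 0.59 ± 0.13, adjusted p = 0.0323). Thbs1, which encodes the matricellular protein thrombospondin 1, fell from 1521, 1503 and 1418 CPM to 848, 671 and 918 CPM (log2 change -0.87 ± 0.15, adjusted p = 0.011). Timp3, an inhibitor of metalloproteinases, fell from 1104, 1269.9 and 1141 CPM to 591, 783 and 836 CPM (log2 change -0.67 ± 0.16, adjusted p = 0.0417). None of the 3 genes overlapped between treatments, as was so for 19.2% of all genes tested. The list holds 8 tested members, with 1 higher, 2 lower and a median log2 change of -0.20. Spp1 lost its call without vehicle library 1 (adjusted p = 0.125), furosemide library 2 (0.0592), furosemide library 4 (0.0829), vehicle library 5 (0.157) and furosemide library 6 (0.0863), and with library size alone as scaling (adjusted p = 0.0554). Thbs1 lost its call without vehicle library 1 (adjusted p = 0.0516), vehicle library 3 (0.0521) and vehicle library 5 (0.0523). Timp3 lost it on leaving out any one of the 6 libraries (adjusted p from 0.0518 to 0.153), and with all libraries kept under RLE size factors (adjusted p = 0.0565), library sizes without Slc12a3 (0.0542), without cells with 2 or more Slc12a1 counts (0.0508) and without cells with Birc5 or Mki67 (0.0855).

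Nbl1 and Hspa1a were the other genes that fell. Nbl1, an antagonist of bone morphogenetic proteins, stood at 184, 208 and 226 CPM in the vehicle libraries and at 111, 73.0 and 124 CPM in the furosemide libraries (log2 change -1.02 ± 0.24, adjusted p = 0.0399). Hspa1a, which encodes the inducible heat shock protein Hsp70, stood at 4624, 2737 and 3946 CPM and at 1943, 1508 and 1422 CPM (log2 change -1.21 ± 0.21, adjusted p = 0.011). In neither gene did the treatments overlap. Hspa1a was 1 of 9 tested immediate early and heat shock genes, and none of the others passed (1.85% of genes tested were called lower). Jun gave -0.25 ± 0.12 (adjusted p = 0.352), and Hspa5, the chaperone of the endoplasmic reticulum, gave 0.50 ± 0.20 (adjusted p = 0.252). The list's median was -0.08. With cells thinned to 500 counts Jun passed as lower (adjusted p = 0.0455). Hspa1a lost its call without vehicle library 1 (adjusted p = 0.0502), vehicle library 5 (0.0523) and furosemide library 6 (0.0518). Nbl1 lost it on leaving out any one of the 6 libraries (adjusted p from 0.0518 to 0.157), and with all libraries kept without cells with 2 or more Slc12a1 counts (adjusted p = 0.0613), without cells with Birc5 or Mki67 (0.0514) and over the whole DCT class (0.0521).

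Slc12a1, the target of furosemide, is a TAL gene, and it was called lower in DCT sub1, where its share of cells with a count was close to that in cell types that should lack it and its level was above that of most of them. It stood at 313, 419.6 and 353 CPM in the vehicle libraries and at 120.1, 195 and 161 CPM in the furosemide libraries, which lay lower (log2 change -1.17 ± 0.21, adjusted p = 0.0129). A Slc12a1 count occurred in 17.7% ± 2.64 of vehicle and 9.13% ± 0.990 of furosemide DCT sub1 cells (SD, n = 3). In proximal cells the shares were 15.1% ± 3.49 and 8.92% ± 1.71, and in podocytes 20.6% ± 1.16 and 8.68% ± 2.02. These cells were not thinned, and their median depths under vehicle were 1359, 1208 and 689.5 counts. The vehicle share in DCT sub1 thus lay below that in podocytes, which were less deeply counted. The unscaled level under vehicle was 371 CPM in DCT sub1, 148 in proximal cells, 445 in podocytes, 194 in CNT and 108 in DCT2, against 91724 in TAL. DCT sub1 lay above proximal, CNT and DCT2 cells on this scale, and its order against podocytes varied by library. Podocytes stood at 755, 253 and 326 CPM in vehicle libraries 1, 3 and 5, and DCT sub1 at 331, 407 and 376 CPM. Whether the DCT sub1 counts come from the cells themselves was not tested.

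The share of TAL cells in the libraries moved with this gene, from 23.7% ± 1.01 of cells under vehicle to 13.3% ± 2.13 under furosemide. Its part in the result was not tested. The Slc12a1 call was lost without vehicle library 1 (adjusted p = 0.0502), vehicle library 3 (0.0614), vehicle library 5 (0.0596) and furosemide library 6 (0.0518). It was lost too without DCT sub1 cells with 2 or more Slc12a1 counts (log2 change -0.82, adjusted p = 0.134) and with cells thinned to 500 counts (-0.86, adjusted p = 0.108). With equal cell numbers its log2 change was -0.66. Of the 7 tested TAL markers, 1 fell (Slc12a1), none rose, and the median log2 change was -0.35. Over all genes tested 1.85% were called lower and the median was 0.01. No fall of the markers as a group is read from 1 call.

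**Figure D3:**
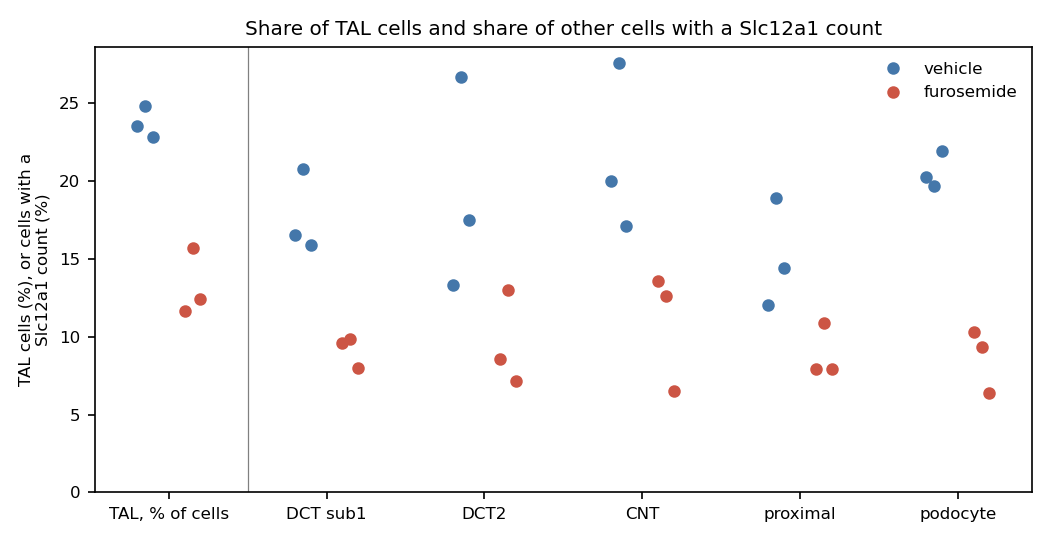
TAL cells as a percentage of all cells (left of the line), and the percentage of cells with a Slc12a1 count in DCT sub1, DCT2, CNT, proximal and podocyte cells. Each point is a library, blue for vehicle and red for furosemide. DCT sub1 stood at 15.9% to 20.8% under vehicle and 8% to 9.83% under furosemide, where proximal cells stood at 12.02% to 18.9% and 7.91% to 10.9%.

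No gene of salt transport passed the test in DCT sub1. Of 20 tested members of the list of DCT salt transport and its control, 0 were called, against 5.54% of all genes tested, and 2 did not overlap between treatments, against 19.2%, with log2 changes from -0.33 to 0.35 and a median of -0.04. Slc12a3 stood at 107334, 91386 and 92772 CPM in the vehicle libraries and at 107282, 107037 and 99020.4 CPM in the furosemide libraries, which overlapped (log2 change 0.10 ± 0.13, adjusted p = 0.837). A p that misses the threshold does not show that its level was the same. Fxyd2 did not overlap, at 4015, 4284 and 3796 CPM and 4927, 4668 and 5858 CPM, and did not pass (log2 change 0.35 ± 0.13, adjusted p = 0.217). Bsnd, which encodes barttin, gave -0.03 ± 0.15.

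The kinases and channels that set Slc12a3 activity gave small values. Wnk1 stood at 23415, 28466 and 23075 CPM in the vehicle libraries and at 25648, 17920.4 and 23723 CPM in the furosemide libraries, which overlapped (log2 change -0.16 ± 0.16, adjusted p = 0.793). Wnk4 gave 0.03 ± 0.13 and Stk39, which encodes the kinase SPAK that phosphorylates Slc12a3, gave 0.03 ± 0.14. Cul3, the ubiquitin ligase scaffold that removes WNK kinases, gave -0.06 ± 0.13. The basolateral potassium channel genes Kcnj10 and Kcnj16 gave 0.02 ± 0.11 and -0.19 ± 0.12. Ppp1r1a, a protein phosphatase inhibitor of the DCT, gave -0.05 ± 0.13. Signs of Wnk4, Kcnj10 and Ppp1r1a turned in some alternatives, so that no direction is given for them.

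Genes of the steroid pathway did not pass either. Atp1b1, the beta subunit of the pump, gave 0.26 ± 0.13 (adjusted p = 0.434). The mineralocorticoid receptor gene Nr3c2 gave -0.29 ± 0.16, the glucocorticoid receptor gene Nr3c1 -0.33 ± 0.34 and Hsd11b2, which inactivates glucocorticoids, 0.26 ± 0.36. Sgk1, an aldosterone-induced kinase, gave -0.15 ± 0.17 and the ubiquitin ligase gene Nedd4l gave -0.09 ± 0.19. In the list of sodium channel and aldosterone signalling genes 0 of 12 tested members passed, and the lowest adjusted p was 0.217.

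**Figure D4:**
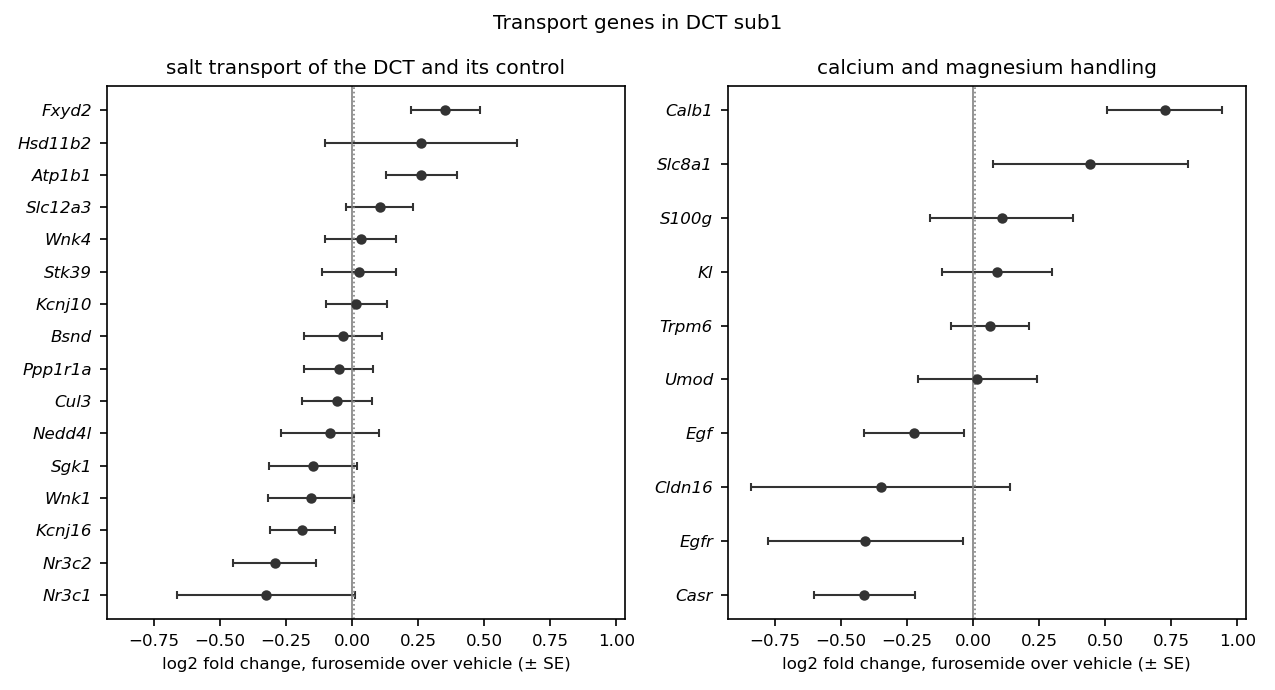
Log2 change with furosemide in DCT sub1, with SE, for genes of salt transport (left) and the tested genes of calcium and magnesium handling (right, 10 genes). The dotted line is the median of all 271 genes tested, 0.01, and no gene shown passed at an adjusted p under 0.05.

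Calcium and magnesium genes gave 0 calls among 10 tested members, 2 of which did not overlap (19.2% over all genes tested), with a median log2 change of 0.04. Trpm6 stood at 3393, 4468 and 3625 CPM in the vehicle libraries and at 4372, 3519 and 4135 CPM in the furosemide libraries, with overlap (log2 change 0.07 ± 0.15, adjusted p = 0.931). Egf, whose product stimulates Trpm6, stood at 59452, 76584 and 51563 CPM and at 64137, 43727 and 52819.5 CPM (log2 change -0.22 ± 0.19, adjusted p = 0.758). The receptor gene Egfr gave -0.41 ± 0.37. Umod gave 0.02 ± 0.23 and Cldn16, a claudin of the TAL, gave -0.35 ± 0.49. Signs of Trpm6, Umod, S100g and Kl turned in some alternatives.

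Calb1, the calcium-binding protein that ferries calcium through the cell, came closest. It stood at 22827, 31234 and 24557 CPM in the vehicle libraries and at 40329, 31882 and 57796 CPM in the furosemide libraries, without overlap (log2 change 0.73 ± 0.22, adjusted p = 0.107). It passed with DESeq2 (adjusted p = 0.0499) and without furosemide library 4 (adjusted p = 0.043). Calb1 rose in DCT sub2 (1.14 ± 0.22), CNT (1.82 ± 0.27), and in TAL and proximal cells, where its levels went from 38.7 ± 4.08 to 122 ± 11.0 CPM and from 34.9 ± 6.64 to 124 ± 24.0 CPM. The 7 connecting tubule markers of the panel summed to 35135 to 49421 CPM in vehicle and 46383 to 69441 CPM in furosemide DCT sub1 cells, with none at 0, and their part in the result was not tested. Of other calcium genes, S100g gave 0.11 ± 0.27, the exchanger gene Slc8a1 0.44 ± 0.37, the co-receptor gene Kl 0.09 ± 0.21 and the calcium-sensing receptor gene Casr -0.41 ± 0.19, the last without overlap (adjusted p = 0.352).

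Growth factor and local hormone genes gave no call. In the insulin-like growth factor (IGF) axis 0 of 6 tested members passed, 3 did not overlap (19.2% over all genes tested) and the median log2 change was -0.29. Igf1 stood at 57.9, 52.1 and 39.6 CPM in the vehicle libraries and at 30.6, 26.8 and 16.9 CPM in the furosemide libraries, which lay lower (log2 change -1.003 ± 0.35, adjusted p = 0.18). Igf1r, its receptor, gave -0.61 ± 0.24 and the insulin receptor gene Insr -0.49 ± 0.20, both without overlap (adjusted p = 0.252 and 0.279). Of 6 tested EGF and other growth factor genes none passed, with a median of -0.33. Hbegf, an EGF receptor ligand, gave -0.59 ± 0.23 with overlap (adjusted p = 0.241), and passed as lower with cells thinned to 500 counts (adjusted p = 0.0283). The platelet-derived growth factor gene Pdgfb gave -0.58 ± 0.27, and Vegfa, of vascular growth, gave -0.25 ± 0.20.

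Among 4 tested genes of prostaglandin, adenosine and angiotensin signalling none passed. The prostaglandin E2 receptor gene Ptger3 gave -0.69 ± 0.24 without overlap (adjusted p = 0.18) and passed as lower with cells thinned to 500 counts and over the whole DCT class (adjusted p = 0.0377 and 0.0481). Edn1, which encodes endothelin 1, gave 0.88 ± 0.31 with overlap (adjusted p = 0.18). Adora2b gave -0.27 ± 0.18. The lipase gene Lpl gave 0.43 ± 0.21 and the injury-list chemokine gene Cxcl1 gave 0.31 ± 0.42. Of 5 tested injury genes 2 rose, the Lcn2 and Spp1 described above, where 3.69% of all genes tested were called higher. The antioxidant Sod3 gave -0.11 ± 0.30.

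Whether furosemide acted differently on DCT sub1 than on its neighbours was tested as an interaction of cell group and treatment, with the library as a block. Against DCT sub2, 0 of 242 genes passed (0.0%) with edgeR, 10 had an unadjusted p under 0.05, and limma-voom called 0. The DCT sub2 sums came from 22 to 54 cells per library. In DCT sub2 fitted alone, 9 of the 15 called genes passed the filter on low counts. The 0 calls thus do not show that both clusters changed alike. The smallest p belonged to Hist1h1c, a linker histone gene, with log2 changes of -0.09 in DCT sub1 and -1.16 in DCT sub2 (difference 1.004 ± 0.28, adjusted p = 0.824). Gpx6 differed by 0.52 ± 0.17 and Ttr, the transthyretin gene, by 2.28 ± 0.81. In the other direction Calb1 differed by -0.44 ± 0.15, Hspa5 by -0.46 ± 0.19 and Nfe2l2, the oxidative stress regulator, by -0.43 ± 0.21. None of these passed (adjusted p from 0.824 to 0.971), and without furosemide library 4 there was 1 call.

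Against DCT2, the late DCT, 2 of 261 genes passed (0.766%), both of fuel use, 1 more positive (0.383%) and 1 more negative (0.383%) in DCT sub1. Ckb rose less in DCT sub1, from 10263 to 15063 CPM, than in DCT2, from 1119 to 4304 CPM (log2 changes 0.55 and 1.94, difference -1.39 ± 0.16, adjusted p = 0.00164). Ckb had a lower level in DCT2 in both treatments. Slc2a4 went from 651 to 1191 CPM in DCT sub1 and from 1959 to 2048 CPM in DCT2 (log2 changes 0.87 and 0.06, difference 0.78 ± 0.15, adjusted p = 0.0449). The Ckb difference passed on leaving out any one library and in the other alternatives run. That of Slc2a4 was lost without vehicle library 1 (adjusted p = 0.0648), furosemide library 2 (0.0877), vehicle library 3 (0.138), furosemide library 4 (0.118) or furosemide library 6 (0.0945), with RLE size factors (0.0687) and with cells thinned to 500 counts (0.0803). Without the library block it did not pass either (adjusted p = 0.35). The count of calls was 4 without furosemide library 4, 7 without vehicle library 5, and 1 without vehicle library 1, furosemide library 2 or furosemide library 6.

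Against TAL, 31 of 309 genes passed (10%), 17 with the more positive change in DCT sub1 (5.5%) and 14 with the more negative (4.53%). Of the 15 genes called in DCT sub1, 10 were among the 31. Tfrc rose in DCT sub1 and did not pass in TAL, with log2 changes of 1.30 and -0.70 (difference 1.94 ± 0.13, adjusted p = 2.61e-05). Fxyd2 gave 0.35 in DCT sub1 and -1.26 in TAL (difference 1.56 ± 0.14, adjusted p = 1.73e-04), and its TAL level went from 1796 to 753 CPM. Gpx6 rose in DCT sub1 and fell in TAL, from 9408 to 4892 CPM (difference 1.67 ± 0.20). Ccnd1, the cyclin D1 gene of the entry into the cell cycle, gave 0.01 in DCT sub1 and -1.29 in TAL. G6pc, a proximal tubule gene, was low in DCT sub1, from 54.0 to 69.0 CPM (log2 change 0.37 ± 0.35, adjusted p = 0.766). In TAL it fell from 541 to 156 CPM (-1.80 ± 0.27, adjusted p = 0.0177). The G6pc difference was 2.10 ± 0.25, a call lost with cells thinned to 500 counts (adjusted p = 0.0655).

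In the opposite direction stood genes of the matrix and of ion transport. Thbs1 fell in DCT sub1, from 1481 to 812 CPM, and went from 728 to 1147 CPM in TAL (difference -1.57 ± 0.15, adjusted p = 1.75e-04). Timp3 differed by -0.82 ± 0.13 (adjusted p = 0.00339), and this call was lost without the library block (adjusted p = 0.0949). Kcnj16 gave -0.19 in DCT sub1 and 0.78 in TAL (difference -1.01 ± 0.15, adjusted p = 0.00299). Atp4a, a proton pump subunit gene, gave -0.49 and 0.81 (difference -1.32 ± 0.20, adjusted p = 0.00299). Leaving out a library moved the count of calls to 17 (vehicle library 1), 18 (furosemide library 2), 16 (furosemide library 4), 20 (vehicle library 5) and 47 (furosemide library 6). In the sums, a change in the cells of a group and a change in which cells fall into it cannot be told apart.

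**Figure D5:**
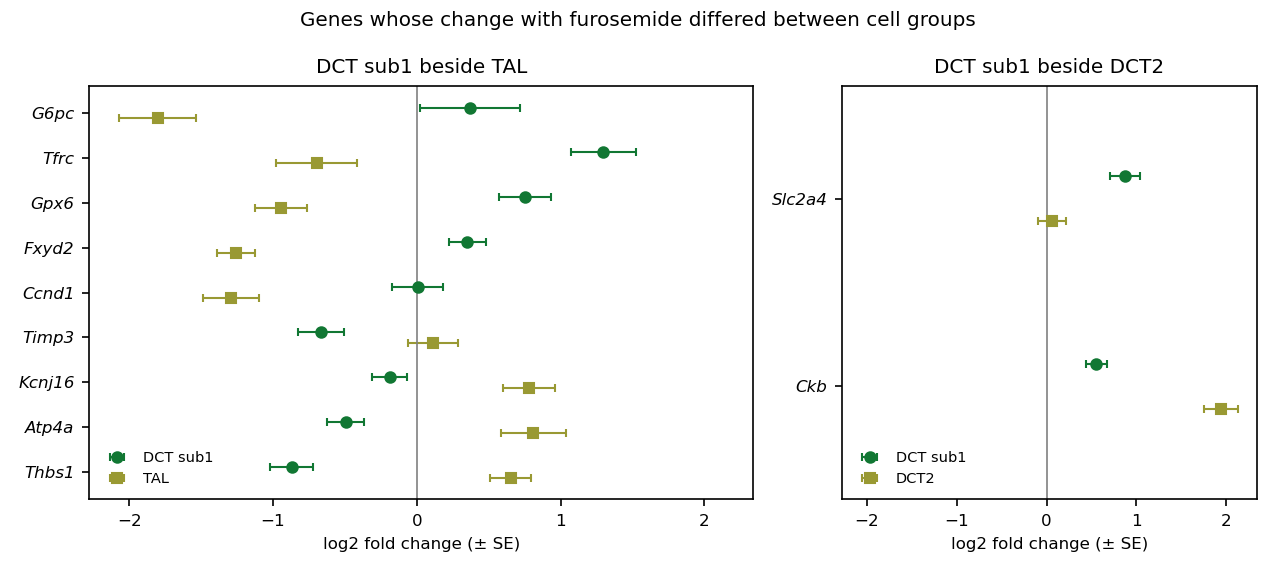
Log2 change with furosemide, with SE, in DCT sub1 (green circles) and in TAL or DCT2 (olive squares), for the named genes whose change differed at an adjusted p under 0.05. Tfrc, Fxyd2 and Gpx6 lie above 0 in DCT sub1 and below 0 in TAL, and Ckb lies furthest to the right in DCT2.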

How the data were processed

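Counts of 456 panel genes in 22154 single cells of 6 libraries were used as the authors deposited them. Bowtie2 2.2.9 is named in the submitters' processing notes. Genome build, counting step and correction of molecular barcodes are not given in the sources used here. Per the file names, the deposited cells exclude doublets and 1 mixed cluster, with cell numbers made equal. Cell class, cluster, library and treatment come from the deposited annotation. Libraries could not be joined to the replicate numbers of the labels and are named by library number.

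Counts of DCT sub1 cells were summed per library and tested with edgeR 4.0.16 in R 4.3.3 (TMM, filterByExpr, robust quasi-likelihood fit), with Benjamini-Hochberg adjustment over all genes tested. The same test gave the changes in other classes, each fitted alone, and the interactions. For shares and depth, two-sided exact permutation tests ran over the 20 possible assignments. Shares of cells with a count come from cells thinned to 500 counts where the text says so. The shares with a Slc12a1 or Umod count come from all cells at full depth and are not matched for depth. The same holds for shares with counts of both Birc5 and Mki67, apart from the means given after thinning. Alternatives were DESeq2 1.42.0, limma 3.58.1 (voom), other scalings, filters and cell choices, and each library left out. The scripts were tested on simulated data. Named were all called genes, the 4 markers, tested members of both transport lists and, of other lists, called members and the 3 smallest p, with up to 5 genes in each direction per interaction and the 10 leading genes by ratio to the next class. A few genes that this rule names are not reported here. Members and lists were chosen with earlier results of these data known.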

Additional observations from a re-analysis of the deposited data

Results flagged for a closer look

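The change with furosemide differed between DCT sub1 and another cell group, by edgeR's interaction test, for 11 named pairs of gene and group. Against DCT2 the log2 difference was -1.39 ± 0.16 (SE) for Ckb and 0.78 ± 0.15 for Slc2a4. Against TAL it was more positive in DCT sub1 for Tfrc (1.94 ± 0.13), Fxyd2 (1.56 ± 0.14), Gpx6 (1.67 ± 0.20), G6pc (2.10 ± 0.25) and Ccnd1 (1.29 ± 0.17). It was more negative in DCT sub1 for Thbs1 (-1.57 ± 0.15), Kcnj16 (-1.01 ± 0.15), Atp4a (-1.32 ± 0.20) and Timp3 (-0.82 ± 0.13). Each pair was measured in the same 3 vehicle and 3 furosemide libraries, and the cause was not tested.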

How the results depend on the processing

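No paired analysis was possible because the library numbers of the cells could not be joined to the replicate numbers of the labels. In DCT sub1 the 15 calls were 19 with DESeq2, 15 with limma-voom, 13 with RLE size factors, 16 (9 higher, 7 lower) with library size alone, 16 without a filter, 9 with equal cell numbers, 16 (7 higher, 9 lower) with cells thinned to 500 counts, 13 with library sizes that leave out Slc12a3, 10 without the top 5% of totals, 11 without cells with 2 or more Slc12a1 counts, 11 without cells with Birc5 or Mki67, 13 over the whole DCT class and 15 without shared barcodes. Mki67 and Lcn2 after thinning missed the filter on low counts. They ranged from 0 to 14 with a library left out, the 14 being DESeq2 without vehicle library 5. Differences against DCT2 numbered 1 without the library block, with RLE or thinned, against DCT sub2 0 to 1, against DCT2 1 to 7 and against TAL 16 to 47 with a library left out, and 17 against TAL without the block. The cause was not tested.

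No called gene changed sign in any alternative run. Uncalled genes near 0 did: with library size alone Trpm6 (-0.0157), Wnk4 (-0.0466), Kcnj10 (-0.0627) and Umod (-0.0620), with equal cells or thinning Wnk4 (-0.0187 and -0.0233), without a filter Kcnj10 (-0.00615) and Umod (-0.00856), with DESeq2 Umod (-0.000306), and without cells with Birc5 or Mki67 S100g (-0.14). With a library left out the log2 changes ranged from -0.0131 to 0.19 (Trpm6), -0.0521 to 0.11 (Wnk4), -0.13 to 0.0483 (Ppp1r1a), -0.00897 to 0.0501 (Kcnj10), -0.19 to 0.26 (Umod), -0.0448 to 0.35 (Kl) and -0.0801 to 0.52 (S100g). The log2 ratio of the DCT sub1 share was 0.41 and turned to -0.0328 within the DCT class. The difference in median counts per cell was -68.75 to 188.75 counts with a library left out. DESeq2 and limma-voom without vehicle library 5, limma-voom for the interactions and the removal of cells with shared barcodes were chosen after seeing the data. Low counts limit Birc5, Mki67 and Lcn2.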
